A study of Mus musculus with 8 samples.

Results

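Zscan4 is a small cluster of near-identical genes on mouse chromosome 7, and the 6 copies named Zscan4a to Zscan4f are described here in mouse embryonic stem cells. The copies were taken by symbol from a count table of 57010 genes. All 6 were present, each as a single row, and all 6 passed the filter on low counts that left 17976 genes for testing. Stem cells labelled Control or HSVTK received the solvent DMSO or ganciclovir (GANC), with 2 libraries for each of the 4 combinations. Per the series' design text, the HSVTK cells carry a 2C::HSVTK reporter, so that cells in the 2C-like state make the thymidine kinase of herpes simplex virus, and ganciclovir is meant to remove those cells. The promoter of the reporter, the number of clones, the dose, the time and what the Control cells carry are not stated. Nor do the labels say whether both libraries of a group are separate cultures, so the spread between them may be technical. A p-value here rests on that spread, pooled over the 4 groups and drawn towards that of other genes.

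Zscan4 proteins carry a SCAN domain and zinc fingers. In the mouse they appear in a burst at the 2-cell stage of the embryo and again, in bursts, in a small minority of cultured embryonic stem cells, where they mark the 2C-like state and have been tied to telomere lengthening by recombination and to loss of DNA methylation. The transcription factor Dux, itself switched on by Dppa2 and Dppa4, activates the Zscan4 genes. Zscan4c, Zscan4d and Zscan4f are known to encode the full-length protein, with Zscan4c the form best known from stem cells and Zscan4d that of the embryo, while Zscan4a, Zscan4b and Zscan4e encode shortened products. In bulk RNA, more cells in the Zscan4 state and more Zscan4 RNA per cell cannot be told apart.

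The control regions of 4 copies are shown to let their likeness be seen. The lines give the 250 bases before the start from RefSeq on GRCm38.p6, for the 4 of 6 copies that matched an entry (not Zscan4a and Zscan4e), and the capitals mark a TATAAA box and the stretch closest to the Dux motif TGATTNAATCA.
Zscan4b (chr7:10905051-10905300, minus strand): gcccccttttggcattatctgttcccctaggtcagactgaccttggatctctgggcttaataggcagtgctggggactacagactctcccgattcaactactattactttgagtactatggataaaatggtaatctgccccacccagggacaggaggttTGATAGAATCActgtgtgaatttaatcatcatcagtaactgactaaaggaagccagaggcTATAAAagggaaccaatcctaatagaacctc
Zscan4c (chr7:11005495-11005744, plus strand): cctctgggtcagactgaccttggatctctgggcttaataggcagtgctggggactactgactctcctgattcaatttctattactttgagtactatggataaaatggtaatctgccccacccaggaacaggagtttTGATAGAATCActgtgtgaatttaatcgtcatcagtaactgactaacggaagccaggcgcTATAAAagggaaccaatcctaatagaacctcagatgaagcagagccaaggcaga
Zscan4d (chr7:11166149-11166398, minus strand): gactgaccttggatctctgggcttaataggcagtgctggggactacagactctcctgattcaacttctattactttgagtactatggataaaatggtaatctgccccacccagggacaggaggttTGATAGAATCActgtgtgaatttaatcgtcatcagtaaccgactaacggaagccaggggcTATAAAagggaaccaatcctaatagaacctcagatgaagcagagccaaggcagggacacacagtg
Zscan4f (chr7:11397665-11397914, plus strand): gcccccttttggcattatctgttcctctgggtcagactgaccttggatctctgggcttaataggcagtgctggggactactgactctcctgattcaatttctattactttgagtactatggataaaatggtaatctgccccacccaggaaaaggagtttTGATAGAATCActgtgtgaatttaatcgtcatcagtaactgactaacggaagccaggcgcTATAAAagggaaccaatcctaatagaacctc

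Both motifs were searched on both strands and did not overlap each other. TATAAA began 31 bases before the start in Zscan4b and Zscan4f, 54 bases in Zscan4c and 65 bases in Zscan4d. The stretch TGATAGAATCA, with 1 mismatch to the Dux motif, stood in all 4 windows, at 91 bases in Zscan4b and Zscan4f, 114 in Zscan4c and 125 in Zscan4d. Of 32817 RefSeq windows of the same length, 12.4% held TATAAA, 0.0305% held the Dux letters exactly and 0.649% held them with at most 1 mismatch. A match is a description of letters and not of binding. Aligned over their shared part, the 4 windows were 94.7% (Zscan4b and Zscan4c) to 99.6% (Zscan4c and Zscan4f) identical.

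The transcribed parts were as close. In the GENCODE vM21 transcripts of the 6 copies, identity over the aligned part ran from 94.1% between Zscan4d and Zscan4e to 97.8% between Zscan4a and Zscan4c. Fragments of 100 bases that occur in no other Zscan4 transcript made up 70.4% of those of Zscan4d and 60.9% of those of Zscan4a, but 27.2% of Zscan4c, 23.7% of Zscan4b, 19.4% of Zscan4f and 18.5% of Zscan4e. The labels do not say how reads with several matches were counted, so single-copy counts are uncertain, those of Zscan4b, Zscan4c, Zscan4e and Zscan4f more so, and the sum over the copies is given beside them. The annotations also differ on what the copies are. GENCODE vM21 lists Zscan4a as an unprocessed pseudogene and the other copies as protein coding, while RefSeq lists Zscan4a as a transcribed pseudogene, Zscan4e as a pseudogene and the others as protein coding. In gene order Zscan4a, Zscan4b, Zscan4d and Zscan4e lie on the minus strand and Zscan4c and Zscan4f on the plus strand.

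The libraries held 29704460 to 34184475 counts, of which the 6 copies took 0.00201 to 0.00577%. All 9 stem cell markers were detected in every library, with a summed level of 5032 to 6401 CPM (the usual library-scaled count, here with TMM factors). Those of fibroblasts and feeder cells summed to 11.8 to 25.8 CPM, with 0 to 4 of 9 markers at 0 counts. Mitochondrial genes took 3.56 and 3.45% of the counts in HSVTK GANC and 2.88 to 3.17% elsewhere, and genes with a count numbered 25146 and 25656 there and at most 24772 elsewhere. In every library more genes held exactly 2 counts (2122 to 2350) than exactly 1 (1456 to 1630). A count may thus not always be an independent molecule, and counting intervals may be too narrow.

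Summed over the 6 copies, Zscan4 RNA was highest in the libraries labelled HSVTK GANC, the group in which the drug is meant to remove 2C-like cells. The sum was 1588 and 1881 counts in HSVTK GANC, against 894 and 932 in HSVTK DMSO, 861 and 617 in Control GANC and 822 and 756 in Control DMSO. Scaled, it was 53.3 ± 4.16 CPM (SD, n = 2) in HSVTK GANC, against 27.5 ± 0.448 in HSVTK DMSO, 23.0 ± 3.64 in Control GANC and 25.6 ± 0.386 in Control DMSO. The other 3 groups spanned 20.5 to 27.9 CPM over their 6 libraries, and both HSVTK GANC libraries lay above all of these, at 50.4 and 56.2 CPM. The ratio of group means was 1.94-fold for GANC against DMSO in HSVTK cells, 0.901-fold in Control cells and 2.31-fold for HSVTK against Control cells under GANC. Under DMSO the HSVTK to Control ratio was 1.08-fold. No test was made on the sum. The direction rests on the labels of the libraries.

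Single copies were likewise highest in HSVTK GANC, each with its own spread. Zscan4c stood at 8.53 and 8.88 CPM in HSVTK GANC, against 4.70 and 3.59 in HSVTK DMSO, 4.997 and 4.15 in Control GANC and 5.23 and 4.10 in Control DMSO. The HSVTK GANC libraries lay above the others and the remaining 3 groups overlapped. Zscan4d stood at 11.2 and 13.9 CPM in HSVTK GANC, against 6.85 and 8.06 in HSVTK DMSO, 5.80 and 4.64 in Control GANC and 5.32 and 4.10 in Control DMSO. For this copy the HSVTK libraries lay above the Control libraries under each treatment. Of all tested genes, 33.7% did so under DMSO and 30.2% under GANC. Zscan4f, the weakest of the full-length copies, stood at 5.10 and 5.41 CPM in HSVTK GANC, against 3.58 and 2.92 in HSVTK DMSO, 2.32 and 2.22 in Control GANC and 2.99 and 3.49 in Control DMSO. Its Control GANC libraries were the lowest of the 8.

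The copies with shortened products showed the same high group. Zscan4a, the copy with the most counts, stood at 13.4 and 16.1 CPM in HSVTK GANC, against 6.67 and 7.39 in HSVTK DMSO, 6.63 and 4.68 in Control GANC and 7.39 and 7.18 in Control DMSO. Zscan4e stood at 9.07 and 9.78 CPM in HSVTK GANC, against 3.96 and 4.15 in HSVTK DMSO, 4.70 and 3.78 in Control GANC and 3.35 and 5.85 in Control DMSO. Its Control DMSO libraries lay further apart than the means of the 3 lower groups. Zscan4b, the copy with the fewest counts, stood at 3.08 and 2.15 CPM in HSVTK GANC, against 2.09 and 1.11 in HSVTK DMSO, 1.16 and 0.995 in Control GANC and 1.02 and 1.13 in Control DMSO. Here the lower HSVTK GANC library nearly met the higher HSVTK DMSO library. For all 6 copies both HSVTK GANC libraries lay above the 6 others, as they did for 11.7% of all tested genes.

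**Figure D1:**
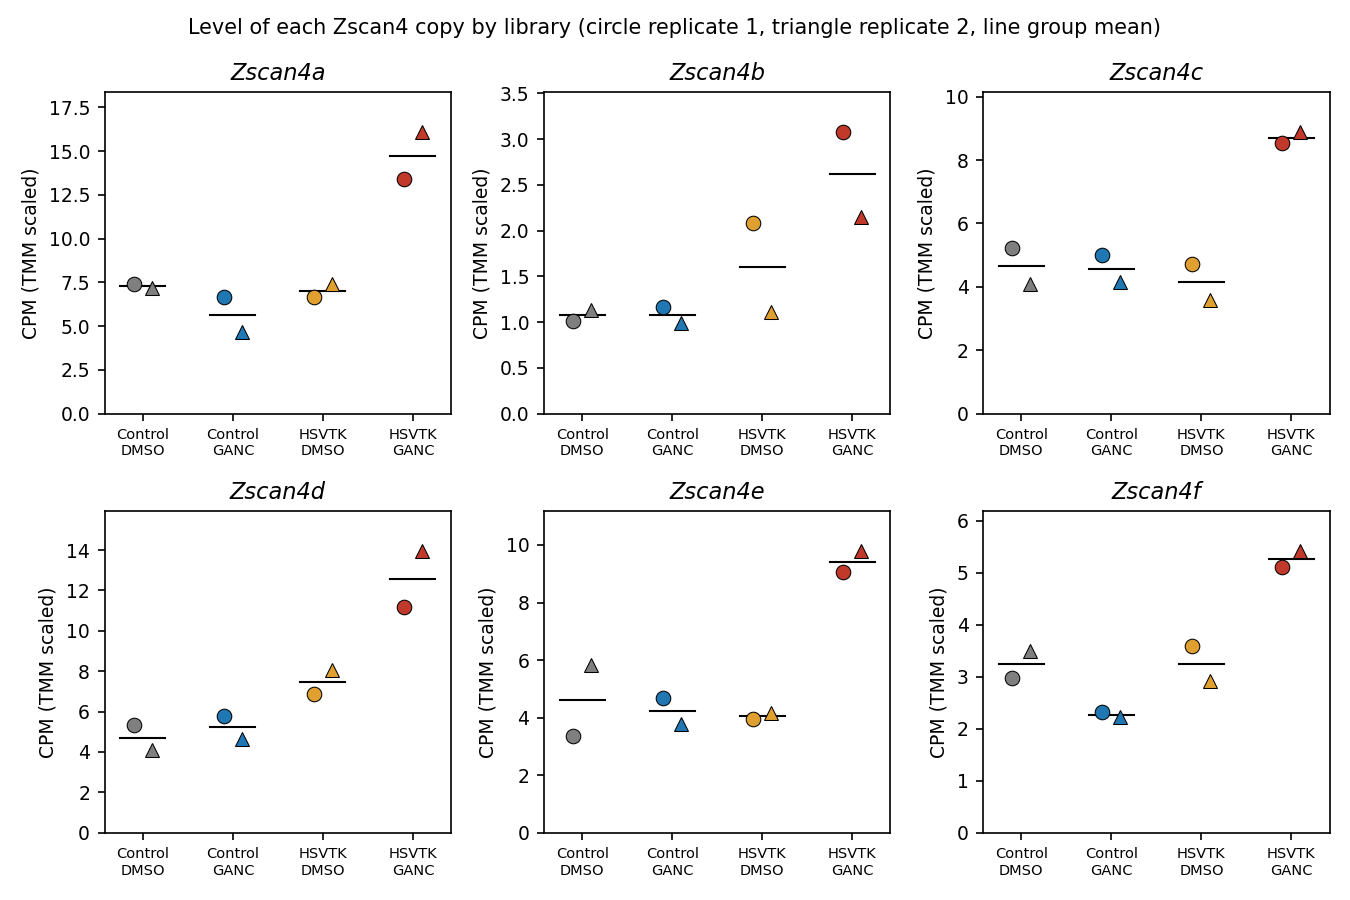
Level of each copy in CPM (y axis, TMM scaled, from 0, a scale of its own in each panel) for the 4 groups (x axis), with replicate 1 as a circle, replicate 2 as a triangle and the mean of 2 libraries as a line. In each panel both HSVTK GANC libraries are the highest, at 13.4 and 16.1 CPM for Zscan4a and 3.08 and 2.15 CPM for Zscan4b.

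In HSVTK cells 5 of the 6 copies rose and none fell under ganciclovir against DMSO, while 13.3% of all tested genes were called higher and 15.2% lower (adjusted p under 0.05, edgeR's quasi-likelihood test with Benjamini-Hochberg adjustment over all tested genes). Zscan4e rose by 1.22 ± 0.20 on the log2 scale (SE, adjusted p = 2.56e-05), Zscan4c by 1.07 ± 0.18 (adjusted p = 4.28e-05) and Zscan4a by 1.07 ± 0.15 (adjusted p = 4.30e-06). Smaller rises were measured for Zscan4d (0.75 ± 0.16, adjusted p = 0.000637) and Zscan4f (0.69 ± 0.20, adjusted p = 0.0105). The exception was Zscan4b, the least counted copy, at 0.71 ± 0.32 with an adjusted p of 0.104. The median over the 6 copies was 0.91, beside 0.01 over all tested genes. Their libraries did not overlap between the groups for 6 of 6 copies, as for 32.4% of all tested genes in that direction. The mitochondrial share and the number of genes with a count were also highest in HSVTK GANC, and their part in the rise was not tested.

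The calls on 3 copies depended on the setting. Zscan4d was not called by limma on log2(FPKM + 1) (0.63, adjusted p = 0.0553) or log2(FPKM + 0.1) (0.76, adjusted p = 0.0572, the highest over settings, from 2.50e-05). Zscan4f was no longer called without replicate 2 of HSVTK DMSO (0.55, adjusted p = 0.137) or replicate 2 of HSVTK GANC (0.64, adjusted p = 0.0736), and its adjusted p over all settings ran from 0.00525 to 0.137. Zscan4b was called without replicate 1 of HSVTK DMSO, its high library, at 1.22 (adjusted p = 0.0321, range over settings 0.0321 to 0.620).

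In Control cells no copy was called under ganciclovir, while 8.08% of all tested genes were called, 4.73% higher and 3.35% lower. Fold changes ran from -0.51 ± 0.22 for Zscan4f (adjusted p = 0.170) and -0.36 ± 0.16 for Zscan4a (adjusted p = 0.192) to 0.15 ± 0.18 for Zscan4d (adjusted p = 0.701). Zscan4b (0.01 ± 0.37), Zscan4c (-0.03 ± 0.19) and Zscan4e (-0.11 ± 0.21) lay between them. In edgeR 2 of the 6 copies, Zscan4a and Zscan4f, had an unadjusted p under 0.05, and their GANC libraries lay below their DMSO libraries, as those of 24.5% of all tested genes did. DESeq2 and limma called none, with no adjusted p from DESeq2 for Zscan4b. Without replicate 1 of Control GANC, Zscan4a was called lower, at -0.62 (adjusted p = 0.0299, range over settings 0.0299 to 0.790).

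The difference of both responses, the drug effect in HSVTK cells minus that in Control cells, was called for 4 of 6 copies, each higher, while 25.6% of all tested genes were called, 11.6% higher and 14% lower. It was 1.43 ± 0.22 on the log2 scale for Zscan4a (adjusted p = 2.02e-05), 1.32 ± 0.29 for Zscan4e (adjusted p = 0.000913), 1.20 ± 0.30 for Zscan4f (adjusted p = 0.00350) and 1.10 ± 0.26 for Zscan4c (adjusted p = 0.00208). Zscan4b (0.70 ± 0.49, adjusted p = 0.324) and Zscan4d (0.61 ± 0.24, adjusted p = 0.0642) were not called. Zscan4d was called when replicate 2 of Control DMSO (0.76, adjusted p = 0.0317), replicate 1 of Control GANC (0.75, adjusted p = 0.0295) or replicate 1 of HSVTK GANC (0.74, adjusted p = 0.0417) was left out, within a range over settings of 0.0295 to 0.349. Calls on other copies were lost with limma on log2(FPKM + 1) and log2(FPKM + 0.1), where Zscan4c stood at 0.82 (adjusted p = 0.0580) and 1.09 (adjusted p = 0.0560, lowest over settings 0.000765) and Zscan4e at 0.72 (adjusted p = 0.105) and 1.21 (adjusted p = 0.119, lowest over settings 1.49e-05), so that limma called Zscan4a and Zscan4f. This comparison shares its libraries with both drug comparisons.

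Under DMSO the cell groups differed in 1 copy, as against 16.4% of all tested genes called higher in HSVTK cells and 17.3% lower. Zscan4d, the copy known from the embryo, was higher in HSVTK cells by 0.66 ± 0.17 (adjusted p = 0.00363), and its libraries did not overlap, as for 33.7% of all tested genes in that direction. That call was lost without replicate 2 of Control DMSO (0.49, adjusted p = 0.0739) or replicate 2 of HSVTK DMSO (0.54, adjusted p = 0.0609), and with limma on log2(FPKM + 0.1) (0.67, adjusted p = 0.0704) or log2(FPKM + 1) (0.50, adjusted p = 0.0907, range over settings 0.00125 to 0.0907). The other 5 copies ran from -0.18 ± 0.19 (Zscan4c, adjusted p = 0.517) to 0.57 ± 0.35 (Zscan4b, adjusted p = 0.226).

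Under ganciclovir all 6 copies were higher in HSVTK than in Control cells, beside 11.1% of all tested genes called higher and 14.9% lower. The rise was 1.38 ± 0.16 for Zscan4a (adjusted p = 8.84e-08), 1.27 ± 0.34 for Zscan4b (adjusted p = 0.00566) and 1.26 ± 0.17 for Zscan4d (adjusted p = 1.09e-06). Zscan4f (1.21 ± 0.21, adjusted p = 7.58e-05), Zscan4e (1.15 ± 0.20, adjusted p = 5.29e-05) and Zscan4c (0.93 ± 0.18, adjusted p = 0.000237) followed. The median was 1.24, beside 0.01 over all tested genes. The libraries did not overlap for any copy, as for 30.2% of all tested genes. The call on Zscan4b was lost without replicate 1 of HSVTK GANC (0.98, adjusted p = 0.102, range over settings 0.00183 to 0.102), and with limma on log2(FPKM + 1) (0.64, adjusted p = 0.0940) and log2(FPKM + 0.1) (1.18, adjusted p = 0.0804). Zscan4e lost its call narrowly with the same limma settings, at 0.66 (adjusted p = 0.05002) and 1.11 (adjusted p = 0.0547, lowest over settings 2.98e-08). Primitive endoderm markers were also higher, with 6 of 9 called (3 by limma), beside the 11.1% of all tested genes. Their summed level was 87.2 to 94.3 CPM in HSVTK GANC and 49.1 to 54.7 CPM in Control GANC, with 0 of 9 at 0 counts. They differed between the cell groups under DMSO too, where 4 of 9 were called higher, beside 16.4% of all tested genes. Their summed level there was 79.0 to 84.3 CPM in HSVTK DMSO and 47.0 to 47.2 CPM in Control DMSO. Their part in the result was not tested.

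**Figure D2:**
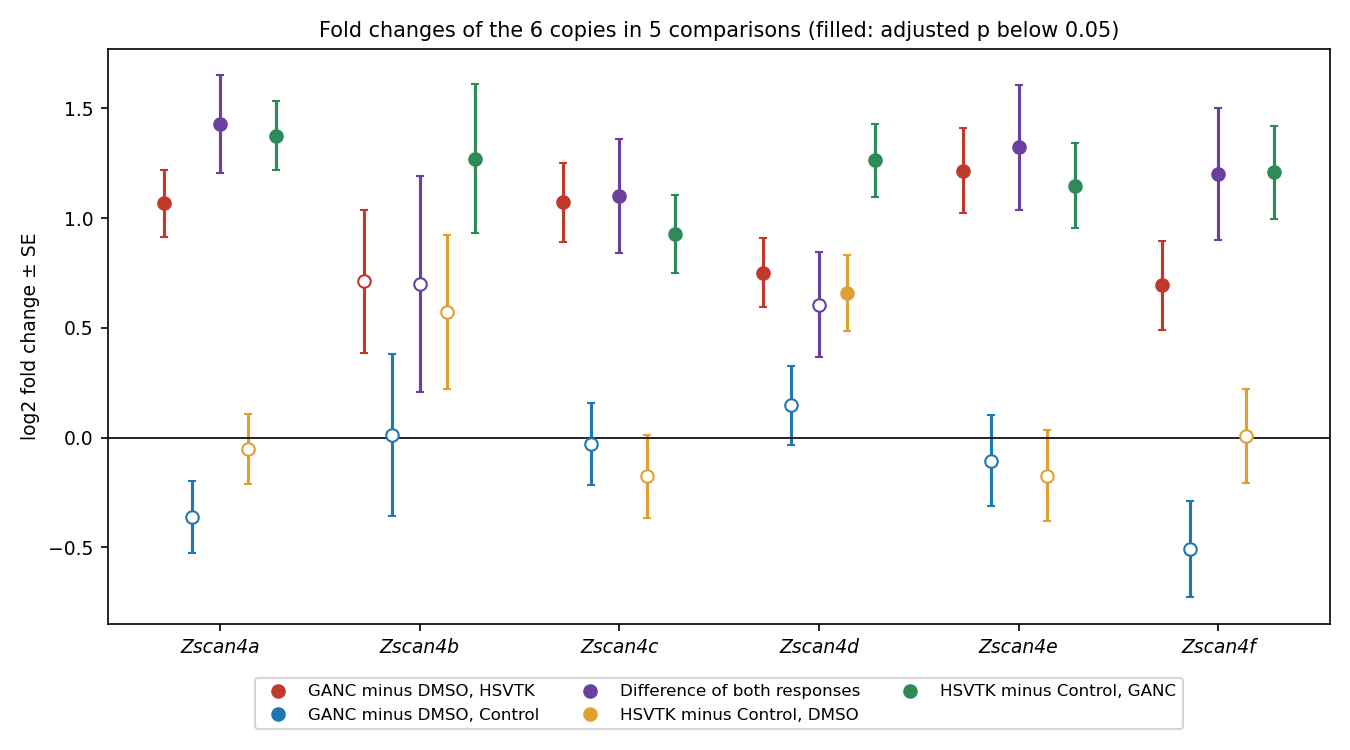
Log2 fold change with its standard error (y axis) for each copy (x axis) in 5 comparisons, shown by colour, with filled points for an adjusted p under 0.05 and open points otherwise. The red and green points, GANC against DMSO in HSVTK cells and HSVTK against Control cells under GANC, lie between 0.69 and 1.38, while the blue points, GANC against DMSO in Control cells, lie between -0.51 and 0.15.

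Within the family, Zscan4a and Zscan4d had the largest median shares, at 26.9 and 22.7%. They were also the copies with the most fragments of 100 bases found in no other Zscan4 transcript, 60.9 and 70.4%. The part of this in the shares was not tested. Zscan4a gave 22.9 to 29.2% of the summed counts over the 8 libraries, Zscan4d 15.9 to 29.6%, Zscan4c 13.2 to 20.7%, Zscan4e 13.3 to 22.6%, Zscan4f 9.06 to 13.5% and Zscan4b 3.83 to 7.49%. In HSVTK GANC, where the level was highest, every copy stayed within the range that the other 3 groups spanned, apart from Zscan4b in replicate 2 at 3.83%. Under DMSO the shares did not overlap between the cell groups for 2 copies. By level, the HSVTK DMSO libraries lay above the Control DMSO libraries for 33.7% of all tested genes. Shares are parts of a whole, so a gain of one copy lowers those of the others. Zscan4d gave 21.0 and 15.9% in Control and 24.6 and 29.6% in HSVTK cells, and Zscan4a 29.2 and 27.8% in Control and 23.9 and 27.1% in HSVTK cells. Under GANC the share of Zscan4d was 22.6 and 22.7% in Control and 22.2 and 24.8% in HSVTK cells, which overlap. No test was made on shares.

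**Figure D3:**
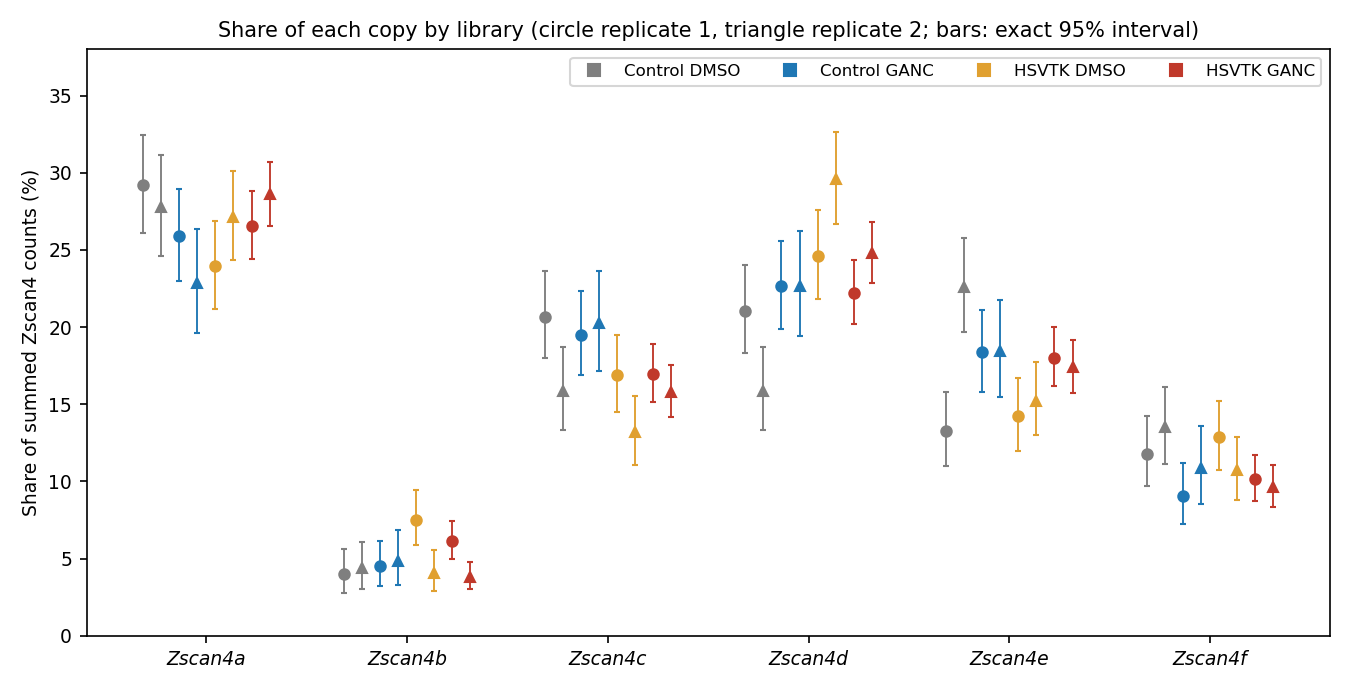
Share of each copy in the summed counts of the 6 copies (y axis, percent, from 0), by copy (x axis) and group (colour), with replicate 1 as a circle, replicate 2 as a triangle and exact Clopper-Pearson 95% intervals that cover counting error only. The shares of Zscan4e in Control DMSO, 13.3 and 22.6%, lie further apart than their intervals, which may be too narrow.

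Pooled over the groups, replicates differed more in single copies than in the sum, but not in every group. In Control DMSO the log2 ratio of replicate 1 to replicate 2 was -0.80 for Zscan4e, 0.38 for Zscan4d and 0.35 for Zscan4c, and -0.03 for the sum. In Control GANC it was 0.32 for the sum, larger than for every copy but Zscan4a (0.50), and in HSVTK GANC it was -0.16 for the sum, larger in size than for Zscan4c (-0.06), Zscan4e (-0.11) and Zscan4f (-0.08). Pooled over the 4 groups, the SD of log2 CPM between replicates was 0.13 for the sum, 0.14 for Zscan4f, 0.21 for Zscan4a and Zscan4c, 0.22 for Zscan4d, 0.31 for Zscan4e and 0.38 for Zscan4b. The sum thus had a smaller spread than each copy, with Zscan4f close to it. The rise of the sum under ganciclovir in HSVTK cells, 0.95 on the log2 scale, was larger than that spread.

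Levels can be compared between copies only per length, for which the deposited FPKM (counts per gene length and library total) were used. Averaged over 8 libraries, Zscan4a stood highest at 3.83 FPKM, before Zscan4d at 3.32, Zscan4c at 2.44, Zscan4f at 1.80, Zscan4e at 1.06 and Zscan4b at 0.888 FPKM. Zscan4a and Zscan4d also had the most fragments of 100 bases found in no other Zscan4 transcript, 60.9 and 70.4%. The other copies had 18.5 to 27.2%. How reads with several matches were counted is not stated, and the part of this in the order was not tested. Zscan4c came out as the third and Zscan4f as the fourth copy in 8 of 8 libraries. Neighbours at both ends changed places. Zscan4a exceeded Zscan4d in 6 of 8 libraries, the exceptions being both of HSVTK DMSO, and Zscan4e exceeded Zscan4b in 7 of 8. In Control DMSO replicate 2 Zscan4d and Zscan4c were nearly equal, at 1.78 and 1.77 FPKM.

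The place of Zscan4e rested on its gene length. The deposited length was 5285 bases, against 1745 bases for its longest GENCODE vM21 transcript, whereas for the other copies the deposited lengths, from 1802 to 2279 bases, were close to those of vM21 (1779 to 2279 bases). With the vM21 length, a setting added after the data had been seen, Zscan4e averaged 3.21 FPKM over 8 libraries. By that mean it took the third place, close to Zscan4d at 3.32 FPKM, with Zscan4c as the fourth and Zscan4f as the fifth. The counts were still those made with the deposited gene. Reads from outside the vM21 transcript thus stay in, so the level and place of Zscan4e may be too high. The order of Zscan4e and Zscan4d at this length differed by cell group. By group means Zscan4e lay above Zscan4d in Control DMSO (2.59 and 2.04 FPKM) and Control GANC (2.41 and 2.27 FPKM), and below it in HSVTK DMSO (2.32 and 3.29 FPKM) and HSVTK GANC (5.53 and 5.67 FPKM). A change of length leaves each copy's fold changes from counts as they are. Those of limma depend on the length, as 1 or 0.1 was added to the deposited FPKM. For GANC in HSVTK cells Zscan4e stood at 0.68 and 1.15 with these settings, against 1.22 in edgeR. Whether its limma calls would change with the vM21 length was not tested.

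**Figure D4:**
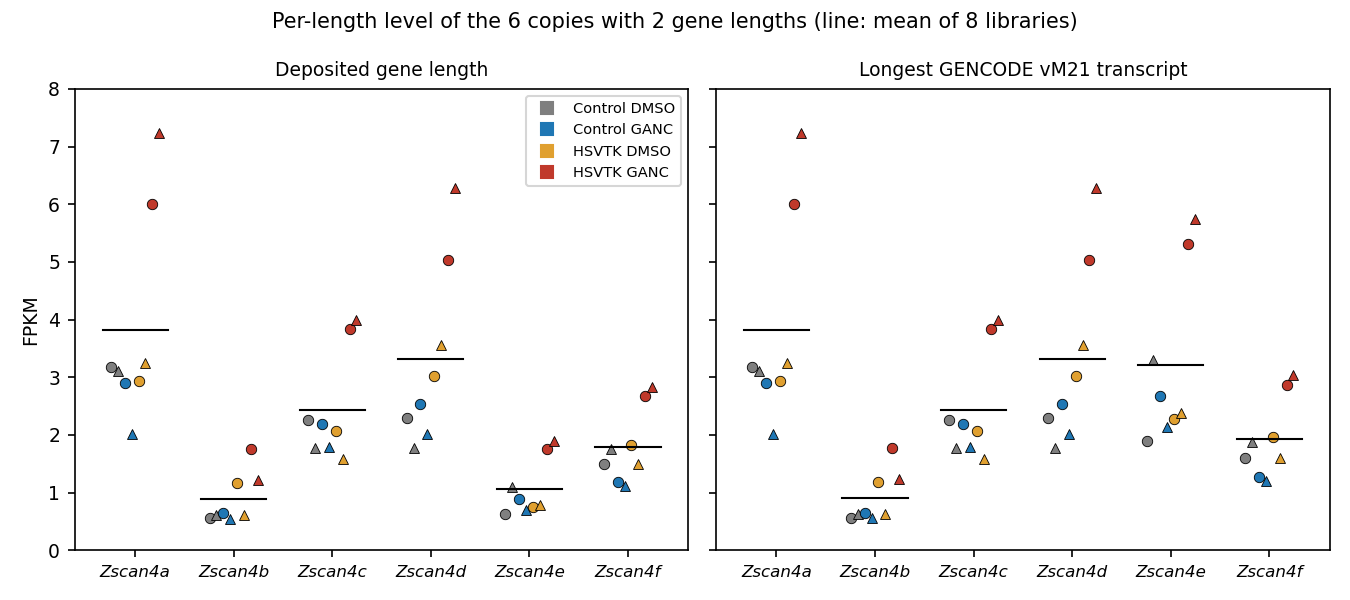
FPKM of each copy (y axis, from 0) in 8 libraries, coloured by group, with replicate 1 as a circle, replicate 2 as a triangle and the mean of 8 libraries as a line, with the deposited gene length on the left and the longest GENCODE vM21 transcript on the right. Zscan4e moves from a mean of 1.06 to 3.21 FPKM and the other copies hardly move. The counts are the same on both sides, so Zscan4e may be too high on the right.

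The neighbours in the cluster that are listed as pseudogenes by RefSeq followed the copies. Zscan4-ps1, which lies between them, was at 3.14 ± 0.761 CPM (SD, n = 2) in HSVTK GANC, against 0.807 ± 0.357 in HSVTK DMSO, 1.402 ± 0.247 in Control GANC and 1.23 ± 0.0921 in Control DMSO. All 3 pseudogenes rose with ganciclovir in HSVTK cells, beside 13.3% of all tested genes called higher. The rise was 1.96 ± 0.34 for Zscan4-ps1 (adjusted p = 6.50e-05) and 1.16 ± 0.20 for Zscan4-ps3 (adjusted p = 6.38e-05). For Zscan4-ps2 it was 0.79 ± 0.22 (adjusted p = 0.00742). In edgeR none was called in Control cells (1 with an unadjusted p under 0.05) or between the cell groups under DMSO (0 such), nor by DESeq2 or limma. All 3 were called for the difference of responses (1.77, 1.69 and 1.02 for Zscan4-ps1, Zscan4-ps3 and Zscan4-ps2) and higher in HSVTK cells under GANC. Of all tested genes, 11.6% and 11.1% were called higher in these comparisons. For the difference DESeq2 called 2 and limma 0 of them, and limma called 2 of 3 for the drug in HSVTK cells and between the cell groups under GANC. They share sequence with the copies, so reads may have been assigned either way. Zscan4-ps4, named after its values were seen, held 0 to 10 counts and was not tested.

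Of the 8 tested genes around the cluster that are outside the family, 1 was called under ganciclovir in HSVTK cells, beside 13.3% of all tested genes called higher and 15.2% lower there. The 5 nearest tested genes before Zscan4a in gene order were Zfp418, Zfp772, Clcn4, Zik1 and Gm6900, and Zfp418, a zinc finger gene, was the called gene, at 0.54 ± 0.13 (adjusted p = 0.00280), with 0.58 ± 0.19 for the difference of responses (adjusted p = 0.0219). Between HSVTK and Control cells Zfp418 differed by -0.52 ± 0.13 under DMSO (adjusted p = 0.00284) and stood at 0.06 ± 0.13 under GANC (adjusted p = 0.803). After Zscan4f came 2410039M03Rik, Zscan4-ps2, Zscan4-ps3, Zfp551 and Zfp606. The zinc finger genes Zfp551 (0.10 ± 0.28, adjusted p = 0.831) and Zfp606 (-0.07 ± 0.16, adjusted p = 0.779) were not called under ganciclovir in HSVTK cells, nor was the pseudogene 2410039M03Rik (1.55 ± 0.76, adjusted p = 0.137). This pseudogene held 2 to 22 counts, at a mean of 0.28 CPM, and was called higher in HSVTK than in Control cells under GANC (3.02 ± 0.89, adjusted p = 0.0123). It may have passed the low-count filter only through HSVTK GANC, which would favour that call.

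Other genes of the 2C-like state rose with the copies. Of 52 listed symbols 27 were in the table and 15 were tested. Under ganciclovir in HSVTK cells 9 of 15 were called higher and 0 lower, beside 13.3% and 15.2% of all tested genes. Their median was 1.29, beside 0.01 over all tested genes. In Control cells 0 were called in edgeR (2 with an unadjusted p under 0.05), DESeq2 or limma. There edgeR called 8.08% of all tested genes. The eIF1A-like Gm21761 rose by 1.27 ± 0.13 (adjusted p = 1.37e-08), from 241 and 264 counts in HSVTK DMSO to 605 and 591 in HSVTK GANC. The deubiquitinase genes Usp17lb (1.16 ± 0.22, adjusted p = 0.000195), Usp17le (0.99 ± 0.19, adjusted p = 0.000281), Usp17lc (1.43 ± 0.34, adjusted p = 0.00191) and Usp17la (1.02 ± 0.25, adjusted p = 0.00243) rose as well, as did Gm4340 (1.67 ± 0.31), Gm20767 (1.09 ± 0.22) and Tdpoz4 (2.15 ± 0.63). Most belong to multicopy families whose reads may be split between copies. For the difference of responses 8 of 15 were called higher (6 by DESeq2, 3 or 4 by limma), beside 11.6% of all tested genes. Under GANC 11 of 15 were higher in HSVTK than in Control cells, beside 11.1%. A gene can pass the low-count filter through a single group, which favours genes high in it. AF067061, among the 11 and named after its values were seen, held 21 and 22 counts in HSVTK GANC and 5 to 11 elsewhere. It may have entered through HSVTK GANC. Under DMSO 1 was lower and 0 higher, beside 17.3% and 16.4% of all tested genes. It was Tdpoz4, at -1.89 ± 0.64 (adjusted p = 0.0226), which neither DESeq2 nor limma called.

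Duxf3, the gene of the activator Dux, was too low to test, with 0 to 4 counts per library. Zfp352, a zinc finger gene of the 2-cell embryo, held 26 and 21 counts in HSVTK GANC, against 8 and 8 in HSVTK DMSO, 14 and 2 in Control GANC and 10 and 15 in Control DMSO. It was highest in the same group as the copies but was not called (1.57 ± 0.70, adjusted p = 0.0985).

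Among the known regulators of the state, called changes under ganciclovir in HSVTK cells were at most 0.48 in size on the log2 scale and went both ways. Of 20 listed, 19 were tested, and there 3 were called higher and 4 lower, with a median of -0.01. Of all tested genes, 13.3% were called higher and 15.2% lower there. Dppa2, an activator of Dux, rose by 0.19 ± 0.06 (adjusted p = 0.0172), and its partner Dppa4 stood at 0.03 ± 0.06 (adjusted p = 0.769). The histone methyltransferase genes Ehmt1 (0.19 ± 0.07, adjusted p = 0.0475) and Setdb1 (0.18 ± 0.07, adjusted p = 0.0340), both known to silence 2C genes, also rose. Chaf1b, a subunit of the chromatin assembly factor whose loss is known to bring on the 2C-like state, fell by 0.48 ± 0.07 (adjusted p = 2.39e-06). Kdm1a (-0.24 ± 0.06), Zfp42 (-0.25 ± 0.05) and Mga (-0.23 ± 0.08) fell too. Chaf1a, the partner subunit of Chaf1b, did not fall and was not called (0.11 ± 0.07, adjusted p = 0.255). Rif1, a repressor of Zscan4, stood at 0.00 ± 0.08 in HSVTK cells (adjusted p = 0.987) and was called lower in Control cells (-0.42 ± 0.08, adjusted p = 0.00167).

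For the difference of responses 4 regulators were called higher and 5 lower, beside 11.6% and 14% of all tested genes. Chaf1b led in size (-0.64 ± 0.09, adjusted p = 8.19e-06). In Control cells edgeR called 4 higher and 3 lower, beside 4.73% and 3.35% of all tested genes. DESeq2 called 4 and 2 there, and limma 0 in either direction. For the drug in HSVTK cells limma called 1 higher and 3 lower, and for the difference 1 and 3. Between the cell groups 4 were higher and 9 lower in HSVTK cells under DMSO, beside 16.4% and 17.3% of all tested genes. Under GANC 2 were higher and 4 lower, beside 11.1% and 14.9%. Tbx3, a pluripotency factor tied to Zscan4 expression, was far higher in HSVTK cells under both treatments. It differed by 1.92 ± 0.07 under DMSO (adjusted p = 3.82e-18) and 1.46 ± 0.07 under GANC (adjusted p = 1.83e-15). The summed Zscan4 counts under DMSO differed by 0.11 on the log2 scale, and a link between the 2 was not tested. Under ganciclovir in HSVTK cells Tbx3 stood at -0.11 ± 0.06 (adjusted p = 0.222).

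Genes of telomere upkeep, recombination and DNA methylation linked to Zscan4 were called in both directions. Of 14 listed, 13 were tested, with 3 called higher and 4 lower under ganciclovir in HSVTK cells (2 and 1 by limma, 2 and 3 by DESeq2) and a median of 0.09, beside 13.3% higher and 15.2% lower of all tested genes. Rtel1, a helicase of telomeres, rose by 0.60 ± 0.07 (adjusted p = 1.27e-07), Terf2, which binds telomere repeats, by 0.23 ± 0.08 (adjusted p = 0.0356) and Brca2 by 0.21 ± 0.08 (adjusted p = 0.0484). The meiotic cohesin gene Smc1b was lower (-0.87 ± 0.16, adjusted p = 0.000130), as were Rad50 (-0.56 ± 0.11), Blm (-0.36 ± 0.07) and the meiotic recombinase Dmc1 (-0.36 ± 0.13). For the difference of responses 1 was higher, Rtel1 (0.91 ± 0.10, adjusted p = 5.67e-08), and 4 were lower (1 and 1 by limma). Of all tested genes, 11.6% were called higher and 14% lower for it. In Control cells 2 were higher, Uhrf1 (0.26 ± 0.06) and Dnmt1 (0.24 ± 0.06), which keep up DNA methylation. Rtel1 was lower there (-0.31 ± 0.07, adjusted p = 0.00548), with 0 called by limma. Of all tested genes, 4.73% were called higher and 3.35% lower in Control cells. Spo11 held 0 to 4 counts and was not tested.

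**Figure D5:**
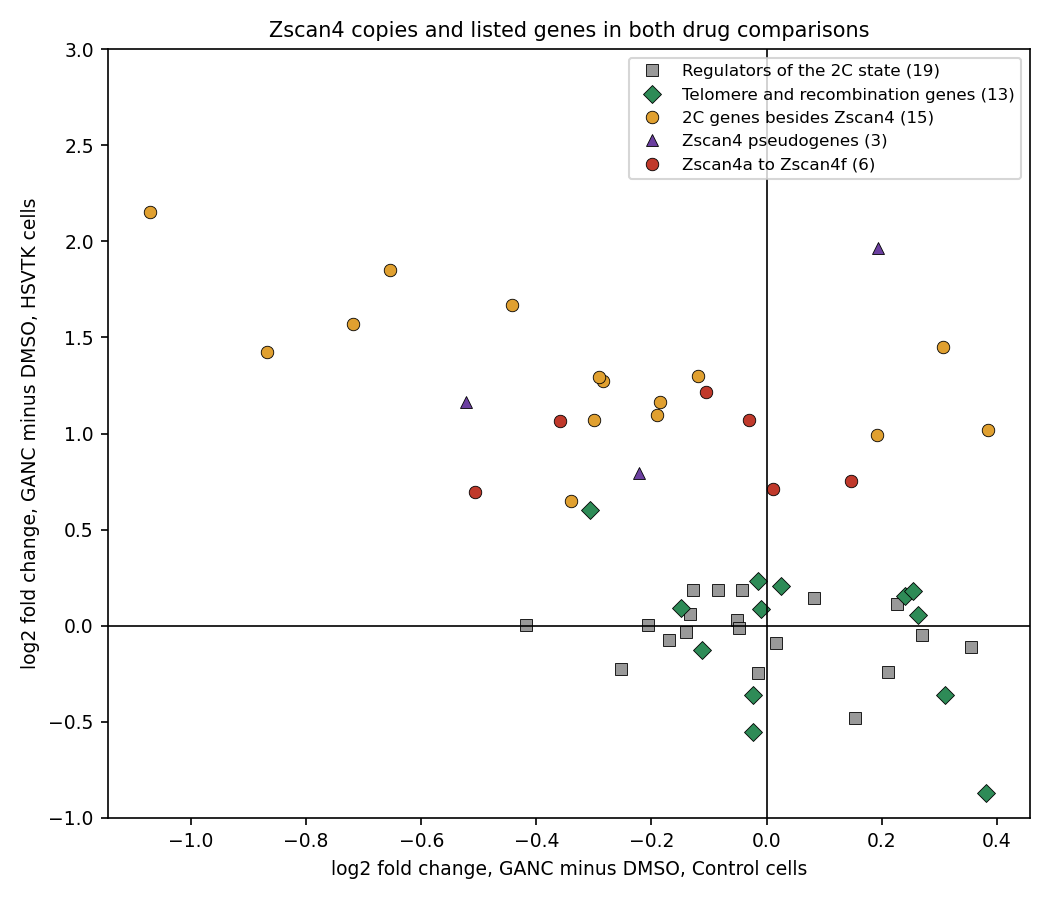
Log2 fold change for GANC against DMSO in Control cells (x axis) and in HSVTK cells (y axis) for the 6 copies, the 3 tested pseudogenes and the tested genes of 3 lists, with lines at 0 on both axes. The copies lie between 0.69 and 1.22 on the y axis, beside the 2C genes with a median of 1.29, while the regulators and the telomere and recombination genes have medians of -0.01 and 0.09.

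Under ganciclovir in HSVTK cells, where the copies rose, stem cell markers were lower or not called. Pou5f1 (0.12 ± 0.06, adjusted p = 0.108) and Nanog (0.03 ± 0.05, adjusted p = 0.769), core factors of pluripotency, were not called under ganciclovir in HSVTK cells. Of 9 stem cell markers 5 were called lower there (3 by limma) and 0 higher. Of all tested genes, 15.2% were called lower and 13.3% higher. The summed level of the stem cell markers was 5419 to 5580 CPM in HSVTK GANC against 6294 to 6401 CPM in HSVTK DMSO. In Control GANC it was 5362 to 5637 CPM. Between HSVTK and Control cells under GANC, where the copies were also higher, 2 of these 9 markers were called higher and 1 lower. Of all tested genes, 11.1% were called higher and 14.9% lower in that comparison. Primitive endoderm markers summed to 87.2 to 94.3 CPM in HSVTK GANC and 79.0 to 84.3 CPM in HSVTK DMSO, with 2 of 9 called higher and 1 lower (none by limma). Their median fold change was -0.33, with 3 of 9 positive, while Lama1 alone went from a mean of 54.2 to 67.8 CPM. Trophectoderm markers summed to 38.7 to 39.4 CPM in HSVTK GANC and 55.6 to 59.2 CPM in HSVTK DMSO, with 1 of 7 tested called higher and 2 lower. For these the median was 0.19, with 4 of 7 positive, while Tfap2c alone went from 36.9 to 18.3 CPM. Fibroblast and feeder markers summed to 22.3 to 23.3 CPM in HSVTK GANC and 23.0 to 25.8 CPM in HSVTK DMSO. Among these Dcn, Lum and Postn held 0 to 4 counts per library. The part of these cell types in the rise of the copies was not tested.

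The genes most like the family over the 8 libraries were found by the Pearson correlation of log2 CPM with the log2 summed Zscan4 CPM, among 13457 tested genes with a mean of at least 1 CPM. The points share the 4 groups, and a gene that is high in HSVTK GANC scores high, so r is a description. The closest were Nkx6-3 (r = 0.991), Ifrd1 (0.986), Ppat (0.983), Xaf1 (0.982) and Slc7a6os (0.981). Eif1ad8 (0.977), Gm29666 (0.975), 4931406C07Rik (0.975), Gm7957 (0.974) and Zfp786 (0.974) came next. They differed in size. Nkx6-3 went from 4.49 and 4.88 CPM in HSVTK DMSO to 12.3 and 12.2 CPM in HSVTK GANC (1.39 on the log2 scale, adjusted p = 2.17e-07) and Xaf1 from 7.13 and 5.32 CPM to 15.9 and 16.6 CPM (1.39, adjusted p = 5.13e-08). Ppat, by contrast, changed by 0.20 (adjusted p = 0.00533), and Slc7a6os, at 0.16, was not called (adjusted p = 0.0955). Zscan4-ps2 ranked at 14 and Gm21761 at 57 among the 13457 genes.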

How the data were processed

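RNA was sequenced from 8 libraries of mouse embryonic stem cells, grouped by the titles into 4 groups of 2. The submitters' processing notes list GRCm39, featureCounts 2.0.1, HISAT2 2.1.0, fastp 0.23.2 and DESeq2 1.40.2, without roles. Neither strand nor the treatment of reads with several matches is stated. The authors deposited raw whole-number counts per gene with a gene length, and FPKM. All 456080 deposited FPKM values equal the count divided by gene length and library total within 1e-05.

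Counts were tested with the quasi-likelihood test of edgeR 4.0.16 (R 4.3.3, TMM, default filterByExpr, all 8 libraries, a mean per group, 4 residual degrees of freedom, Benjamini-Hochberg over 17976 genes, called under 0.05), checked on simulated data. SE is the fold change over the square root of F. The spread behind F is drawn towards that of other genes, so p and SE do not measure a copy's own replicate spread alone. Sums, shares and FPKM were described without a test. Alternatives were RLE factors, library size only, no filter, DESeq2 1.42.0, the replicate block, limma 3.58.1 on log2(FPKM + 1) and log2(FPKM + 0.1), the 4 libraries of a comparison, and each library left out. The members and lists were chosen with earlier results of these data known. Named were the 6 copies, called list members (at most the 8 with the lowest adjusted p), flanking genes, the 10 genes most like the sum, and Pou5f1, Nanog, Duxf3, Zfp352, Dppa2, Dppa4, Rif1 and Tbx3. Not every eligible gene is named. Transcripts and gene order came from GENCODE vM21 and promoters from RefSeq, both on GRCm38, so no other coordinates are printed. Depth was 29704460 to 34184475 counts, and intervals cover counting error only.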

Additional observations from a re-analysis of the deposited data

Results flagged for a closer look

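The response to ganciclovir differed between HSVTK and Control cells, by the test of the difference itself in edgeR, for 4 of the 6 copies, and not for Zscan4b and Zscan4d. The difference on the log2 scale was 1.43 for Zscan4a, 1.10 for Zscan4c, 1.32 for Zscan4e and 1.20 for Zscan4f. With limma on log2(FPKM + 1) or log2(FPKM + 0.1) the calls on Zscan4c and Zscan4e were lost, with adjusted p of up to 0.0580 and 0.119. Of all tested genes, 25.6% were called in this comparison.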

How the results depend on the processing

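Of the counts of copies called, those for GANC in HSVTK cells and for HSVTK against Control under GANC stayed within 1.5 times of 5 and 6 under all settings, at 4 to 6 and 5 to 6 when single libraries were left out. For GANC in Control cells 0 became 0 to 1, for the difference 4 became 4 to 5, and between cell groups under DMSO 1 became 0 to 1. With limma on log2(FPKM + 1) and on log2(FPKM + 0.1), 2 copies were called for the difference and, between cell groups under DMSO, 0. Replicate numbers did not pair the libraries (correlations of deviations -0.086 to 0.056 over 11979 genes), and with a replicate block 5, 0, 4, 1 and 6 copies were called in the 5 comparisons. The block turned Zscan4b in Control cells from 0.01 to -0.0022. Leaving out a library moved the log2 ratio of the sum to -0.32 to 0.0019 for GANC in Control cells, 0.95 to 1.27 for the difference and 1.06 to 1.38 between cell groups under GANC, in each case through the Control GANC libraries. With the vM21 length and unchanged counts Zscan4e moved to 3.21 FPKM, which may be too high. Signs of uncalled copies turned when libraries were left out. In Control cells Zscan4b ranged from -0.090 to 0.12, Zscan4c from -0.18 to 0.16, Zscan4d from -0.016 to 0.36 and Zscan4e from -0.46 to 0.35. Under DMSO Zscan4a ranged from -0.12 to 0.027, Zscan4c from -0.37 to 0.015, Zscan4e from -0.53 to 0.28 and Zscan4f from -0.14 to 0.15. Over all genes limma called 2615 and 2678 genes against 5119 for GANC in HSVTK cells, 29 and 47 against 1453 in Control cells, 1981 and 2127 against 4595 for the difference, 3652 and 3692 against 6060 under DMSO and 2288 and 2381 against 4685 under GANC. It called 4 of the 2C genes with log2(FPKM + 0.1) against 9 for GANC in HSVTK cells, and 4 and 3 against 8 for the difference. The 4 libraries alone gave 942 genes in Control cells, and leaving out libraries gave 433 to 2010 there, 3313 to 5627 for GANC in HSVTK cells and 2999 to 4497 under GANC. The cause was not tested.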
